A study of Saccharomyces cerevisiae with 28 samples.

Results

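The comparison set 1 RNA-seq library of the budding yeast strain YL390, grown at 0.2% glucose, against the 3 libraries of strain YL388 whose glucose concentrations bracket it, 0.4, 0.2 and 0.15%. These 4 libraries were chosen by strain and concentration from the 28 samples of the study, of which 10 are steady-state cultures and 18 are stress samples not analysed here. All 4 cultures were Saccharomyces cerevisiae in synthetic minimal medium, first grown at 0.2% glucose and then kept for 2 h at the stated concentration without added stress. The labels give each strain by its code, with no genotype, mating type or parent, so the strains are described below by what their libraries hold. The other 6 YL388 libraries (0.1, 0.075 and 0.05% glucose, called middle, and 0.025, 0.02 and 0.0125%, called low) served to show how the same genes moved with glucose in YL388, to count genes below all 9 YL388 libraries, and in a limma fit on 10 libraries given as an alternative.

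Baker's yeast adjusts its transcription to glucose through several regulators. Msn2 and its relative Msn4 are zinc finger activators that bind the stress response element, AGGGG, and switch on a broad group of protective and reserve-carbohydrate genes. Protein kinase A holds them in the cytoplasm while glucose is plentiful, and they enter the nucleus when glucose falls or stress arrives. Mig1 is a zinc finger repressor that binds GC-rich sites and silences genes for other carbon sources while glucose lasts.

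Levels are the authors' FPKM values, fragments per kilobase of gene scaled to the size of the library. The deposited tables listed 6692 genes, of which 1321 overlap another gene and were left out, and 631 others had a mean under 10 FPKM over the 4 libraries, which left 4740 genes. Differences are on the scale of log2(FPKM + 1), YL390 minus the mean of the 3 YL388 libraries. The gap is the distance from the YL390 value to the nearest YL388 value when it lies outside their range. A gene is called 2-fold lower or higher when the gap is at least 1 on that scale. With 1 YL390 library there is no replicate of that strain, and no exact permutation of 1 library against 3 can give a one-sided p below 0.25. The limma test quoted beside some values takes its spread from the 3 YL388 libraries and assumes that the YL390 library varies like them, so it speaks of this library and not of the strain.

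The depth implied by the deposited confidence bounds was 5.92 to 7.76 M fragments (M, mega) in the 3 YL388 libraries and 9.21 M in the YL390 library, and the median FPKM over all genes was between 43.4 and 45.1 in the 4 libraries. Over all 4740 genes the median difference was 0.02 and the median width of the YL388 range was 0.15, both in log2 units. Both strains showed the genes of a cells. STE2, the receptor for alpha pheromone, was at 646, 585 and 575 FPKM in YL388 and 636 FPKM in YL390, while STE3, the receptor of alpha cells, lay between 6.01 and 7.41 FPKM in all 4 libraries. All 8 a cell markers passed the filters with differences between -0.02 and 0.46, and MF(ALPHA)1, which codes for alpha pheromone, lay between 1.48 and 2.97 FPKM. The other alpha cell markers were not near the floor, and were read at like levels in both strains. MF(ALPHA)2 was at 40.4, 58.3 and 40.8 FPKM in YL388 and 50.5 FPKM in YL390. SAG1 was at 19.5, 19.2 and 21.5 FPKM against 23.5 FPKM. AFB1, which overlaps another gene, was at 42.0, 39.5 and 41.2 FPKM against 43.2 FPKM. Of the marker genes often deleted in laboratory strains, URA3 and MET17 were listed at 0 in all 4 libraries, and HIS3, LEU2, LYS2, TRP1 and ADE2 were read at like levels in both strains (LEU2 at 53.5, 49.5 and 55.0 FPKM against 51.3 FPKM).

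Promoter windows of 5 of the genes furthest below the YL388 range are given here, chosen after their values were seen. Each window below is the 300 bases that end 100 bases short of the start codon in the R64 reference sequence (sacCer3) from RefSeq, read 5′ to 3′ on the strand of the gene, with AGGGG and its reverse complement CCCCT in capitals.
RTC3, chrVIII:280420-280719, plus strand: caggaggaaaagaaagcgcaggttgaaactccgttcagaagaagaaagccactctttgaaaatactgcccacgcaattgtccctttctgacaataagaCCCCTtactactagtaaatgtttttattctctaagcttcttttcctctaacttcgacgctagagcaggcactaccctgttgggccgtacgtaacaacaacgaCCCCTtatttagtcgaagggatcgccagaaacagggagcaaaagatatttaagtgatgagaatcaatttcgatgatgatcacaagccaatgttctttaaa
HSP12, chrVI:106856-107155, plus strand: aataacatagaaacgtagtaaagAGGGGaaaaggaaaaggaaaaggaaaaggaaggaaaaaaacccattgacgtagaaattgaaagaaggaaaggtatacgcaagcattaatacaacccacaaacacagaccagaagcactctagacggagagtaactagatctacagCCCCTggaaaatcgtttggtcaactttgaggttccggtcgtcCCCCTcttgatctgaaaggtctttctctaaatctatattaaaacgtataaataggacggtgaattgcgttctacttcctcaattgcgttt
DDR2, chrXV:231856-232155, minus strand: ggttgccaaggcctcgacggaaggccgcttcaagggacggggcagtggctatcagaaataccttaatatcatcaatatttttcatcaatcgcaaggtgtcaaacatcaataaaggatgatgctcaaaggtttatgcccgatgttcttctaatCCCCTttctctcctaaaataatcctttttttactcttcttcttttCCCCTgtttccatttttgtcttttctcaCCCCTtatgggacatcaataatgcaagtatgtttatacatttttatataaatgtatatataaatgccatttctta
TSL1, chrXIII:70224-70523, plus strand: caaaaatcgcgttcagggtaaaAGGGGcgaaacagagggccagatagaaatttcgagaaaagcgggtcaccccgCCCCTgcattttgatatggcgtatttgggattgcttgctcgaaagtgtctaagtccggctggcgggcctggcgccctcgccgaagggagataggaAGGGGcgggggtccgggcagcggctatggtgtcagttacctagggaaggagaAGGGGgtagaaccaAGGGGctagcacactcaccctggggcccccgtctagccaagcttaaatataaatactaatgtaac
YGP1, chrXIV:336145-336444, plus strand: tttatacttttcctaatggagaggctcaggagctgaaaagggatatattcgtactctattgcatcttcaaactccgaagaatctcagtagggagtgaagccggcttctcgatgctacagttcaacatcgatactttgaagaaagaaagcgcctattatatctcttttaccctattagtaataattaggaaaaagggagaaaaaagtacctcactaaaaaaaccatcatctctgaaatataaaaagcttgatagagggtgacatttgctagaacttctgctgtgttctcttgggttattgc
The windows of HSP12 and DDR2 each held 3 copies, RTC3 held 2 and TSL1 held 5, as many as any window held. YGP1, with the lowest value relative to YL388 among these 5 genes, held none in this window. The windows of MSN2 and of YLR460C, ARO10 and ARG3 held none either and are not shown. The last of these lay furthest above the YL388 range among genes above 0 in all 4 libraries.

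MSN2 (YMR037C, chrXIII:344403-346517, 2115 bases long) itself showed the furthest departure of any gene read in all 4 libraries. Its level was 45.6, 37.8 and 37.8 FPKM in the YL388 libraries at 0.4, 0.2 and 0.15% glucose and 0.166 FPKM in the YL390 library. The YL390 level was 0.41% of the YL388 mean. The deposited bounds of the YL390 value correspond to 0.0729 and 0.729% of that mean, with the spread of the YL388 libraries left out. At the implied depth the YL390 value stands for about 3.23 fragments, against 473 to 749 in each YL388 library. The log2 difference was -5.14 ± 0.15 (limma SE, adjusted p = 0.000112). At a level this low the pseudocount sets the size, and the difference of MSN2 was -7.25 with 0.1 and -3.13 with 5 in place of 1. The level in all 9 YL388 libraries lay between 37.8 and 46.6 FPKM. The genotype of YL390 is not in the labels, so these values are given as measured. In whole cultures, fewer cells that express a gene and less of its RNA per cell cannot be told apart.

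The genes next to MSN2 on chromosome XIII were read in both strains. CCS1, the copper chaperone of the superoxide dismutase Sod1 and the nearest gene on the side of higher coordinates, was at 233, 242 and 235 FPKM in YL388 and 326 FPKM in YL390. That value lay above all 9 YL388 libraries, with a difference of 0.46 ± 0.07 (limma SE, adjusted p = 0.037), a call that none of the fits without 1 of the 3 YL388 libraries made (adjusted p of 0.0684 to 0.117) and the fit on 10 libraries did (adjusted p = 0.00291). MIH1, a phosphatase of the cell cycle on the other side, was at 15.2 to 18.5 FPKM in YL388 and 18.8 FPKM in YL390. RCH1, IMP2, SUB1 and YET2, the next genes on either side, differed by between -0.10 and 0.12 (limma adjusted p of 0.742 or more), and these neighbours were named after their values were seen.

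The other regulators of the glucose and stress response differed far less. MSN4 was read near the floor in both strains, at 0.808, 0.921 and 1.41 FPKM in YL388 and 1.63 FPKM in YL390. MIG1 was at 93.1, 90.4 and 98.9 FPKM in YL388 and 105 FPKM in YL390, a difference of 0.16 (limma adjusted p = 0.57). MIG3, a relative of MIG1, was at 8.30, 7.75 and 7.41 FPKM against 5.61 FPKM, below the level filter. MIG2, NRG1 and NRG2, which code for other repressors of this kind, were listed at 0 in both strains, so nothing can be compared for them. Of 30 regulators kept out of 42 on that list, 1 was 2-fold lower, MSN2, against 0.97% of all genes, and limma called 3 lower, against 1.62% of all genes. The other called regulators were USV1, a stress-induced zinc finger regulator, and RAS2, a GTPase that activates adenylate cyclase. USV1 was at 85.6, 95.0 and 101.03 FPKM in YL388 and 42.8 FPKM in YL390 (difference -1.11 ± 0.11, limma adjusted p = 0.00771). RAS2 was at 306, 302 and 302 FPKM against 216 FPKM (difference -0.49 ± 0.07, limma adjusted p = 0.0263).

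Over all genes the departures were lopsided. The YL390 library lay 2-fold below the range of the 3 YL388 libraries for 46 genes (0.97% of 4740) and 2-fold above it for 1 gene (0.0211%). At a limit of 1.5-fold the counts were 84 lower (1.77%) and 18 higher (0.38%), and limma at an adjusted p under 0.05 called 77 lower (1.62%) and 16 higher (0.338%). The same test on all 10 steady-state libraries, with a curve for glucose, called 152 lower (3.21%) and 45 higher (0.949%). Counting every gene outside the YL388 range whatever the size, the balance went the other way, with 1098 genes below it (23.2%) and 1577 above it (33.3%). The excess of lower genes was a feature of the large differences. Of the 46 lower genes 45 were also called by limma, and the exception, the 99-base YPL152W-A, was at 323, 166 and 399.5 FPKM in YL388 and 53.2 FPKM in YL390 (limma adjusted p = 0.0794). The 10-library fit called 42 of the 46, and PAI3 and YER053C-A fell just short of its threshold (limma adjusted p of 0.0574 and 0.0562). Of these 46 genes 44 were below all 9 YL388 libraries, whatever their glucose, and 42 by 2-fold (0.886% of all genes). Among the 44 that were above 0 in all 4 libraries, the YL390 level ranged from 0.41 to 46.7% of the YL388 mean with a median of 33.4%. The remaining genes, YAR035C-A and YJL052C-A, are 81 and 120 bases long and were listed at 0 in YL390.

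With each YL388 library left out in turn, 47 of the 77 lower calls held in all 3 fits, and so did 40 of the 45 calls among the 2-fold lower genes, the others being TPS2, PYK2, YEL073C, YER053C-A and YJL052C-A. Of the higher calls those of ALD6, HOT13 and YJL136W-A held in all 3 fits. YJL136W-A was listed at 0 in each of the 3 YL388 libraries and passed the level filter only through YL390. Leaving out a YL388 library could not change that, so the holding of its call says little. RAS2, HSP104, ATO3 and HHT1, named below or above, were called in none of the 3 fits. The fit on 10 libraries lost 6 of the lower and 7 of the higher calls, among them those of HSP104, HHT1, RPL29, RPS29A, RPS29B, YGR050C and YJL136W-A.

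**Figure D1:**
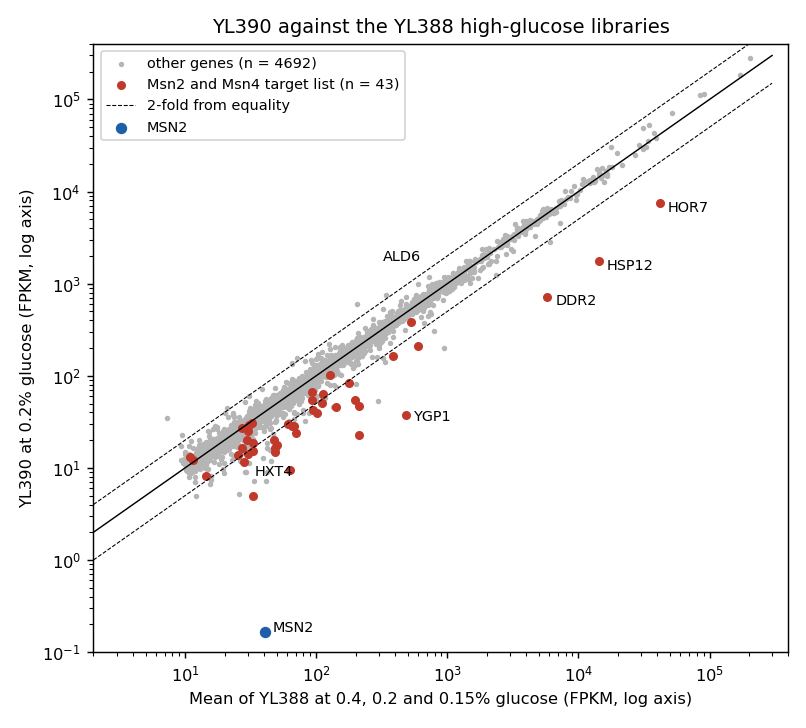
Level of each kept gene in the YL390 library (vertical axis, FPKM, log scale) against its mean over the 3 YL388 libraries (horizontal axis, FPKM, log scale), for genes above 0 in both. Red points are members of the Msn2 and Msn4 target list, the blue point is MSN2 at 0.166 FPKM, the solid line is equality and the broken lines are 2-fold from it; most genes follow the line, and those far off it lie below.

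Among genes above 0 in all 4 libraries, the furthest below the YL388 range after MSN2 were YGP1, RTC3, HSP12, DDR2, TSL1, SOL4 and HOR7, all on the Msn2 and Msn4 target list. YGP1, which codes for a secreted glycoprotein made when nutrients run short, was at 499, 458 and 485 FPKM in YL388 and 37.7 FPKM in YL390, a 12.7-fold difference (log2 difference -3.64 ± 0.08, limma adjusted p = 4.68e-05). RTC3 was at 213, 203 and 216 FPKM against 22.9 FPKM, 9.22-fold lower in YL390. HSP12, a small heat shock protein of the plasma membrane, was at 13693, 14516 and 14650.4 FPKM against 1777 FPKM, an 8.04-fold difference. The 3 YL388 values of each of these genes stayed close together, and the genes are named here because their YL390 values lay far outside them.

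DDR2, a small stress-induced gene, was at 5339.6, 5610.5 and 6464 FPKM in YL388 and 725 FPKM in YL390, 8.01-fold lower. TSL1, a regulatory subunit of the trehalose synthase complex, was at 61.3, 59.1 and 67.5 FPKM against 9.51 FPKM, and SOL4, a 6-phosphogluconolactonase of the pentose phosphate pathway, at 32.6, 30.8 and 35.7 FPKM against 4.93 FPKM. HOR7, which codes for a small membrane protein and is among the most abundant transcripts here, was at 38523, 41840.1 and 44578 FPKM against 7585 FPKM. The low values were thus found both for scarce and for very abundant transcripts. STF2 and SIP18 code for hydrophilins, small proteins known for protection in desiccation. STF2 was at 893, 944 and 999.8 FPKM in YL388 and 199.6 FPKM in YL390, and SIP18 at 208, 209 and 219.8 FPKM against 46.6 FPKM, a 4.56-fold difference (limma adjusted p = 0.000194).

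The remaining members of the 15 furthest below the range had other roles. YPC1, a ceramidase, was at 26.1, 26.5 and 24.6 FPKM in YL388 and 5.25 FPKM in YL390. IGD1, an inhibitor of glycogen debranching, was at 37.8, 42.6 and 46.1 FPKM against 9.13 FPKM, and GAD1, glutamate decarboxylase, at 44.0, 45.5 and 47.3 FPKM against 11.8 FPKM. FMP48 and YCL048W-A, whose products are less well known, were 4.67-fold and 5.78-fold lower. These 5 genes were chosen by their gap, so their YL390 values lie outside the YL388 values by selection.

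**Figure D2:**
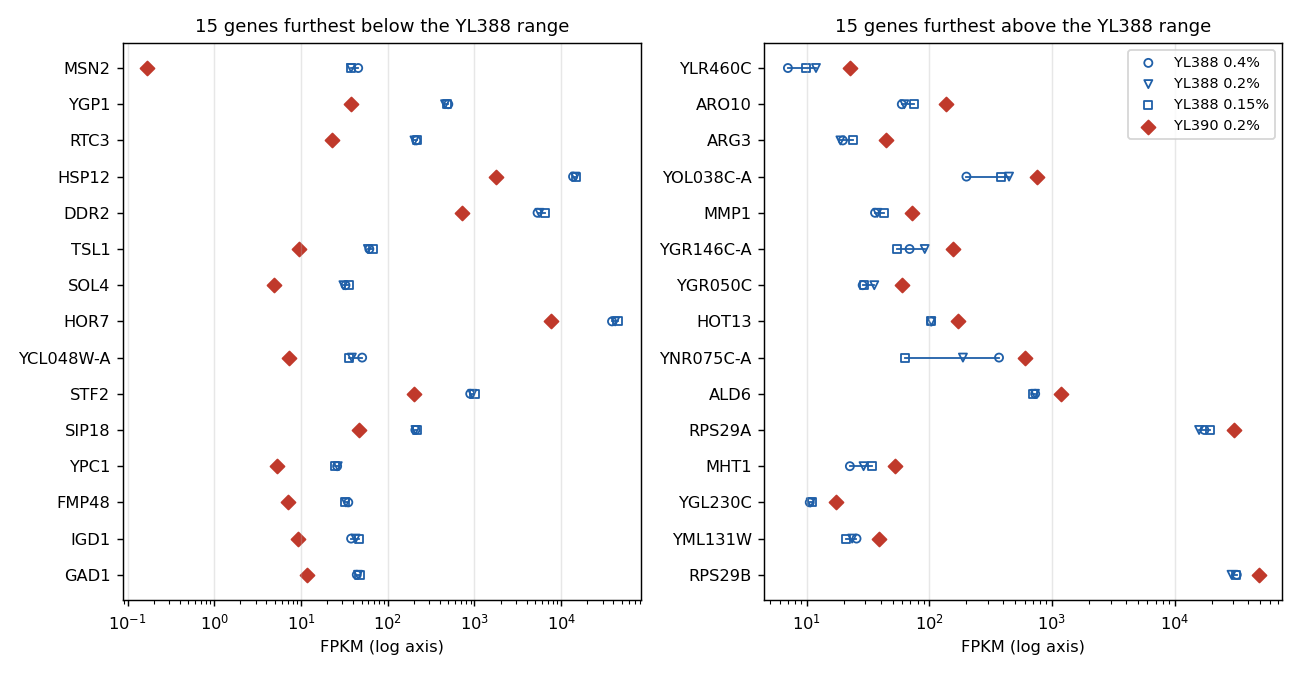
FPKM (log axis) of the 15 genes furthest below (left) and the 15 furthest above (right) the range of the 3 YL388 libraries, among genes above 0 in all 4 libraries. Open blue symbols are the YL388 libraries at each glucose concentration, blue lines their range, and red diamonds the YL390 library; the gaps on the left reach from 37.7 against at least 458 FPKM for YGP1, those on the right are smaller.

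The list of Msn2 and Msn4 target genes was put together from known gene function, with earlier results on the YL388 glucose series known. It held 54 members, of which 43 passed the filters, 7 overlapped another gene and 4 were too low. Of these 43, 22 were 2-fold lower (51.2%, against 0.97% of all genes) and 32 were 1.5-fold lower (against 1.77% of all genes). Below the YL388 range lay 38 (88.4%, against 23.2% of all genes). The median difference was -1.11, against 0.02 over all genes. CTT1, the cytosolic catalase, was at 49.0, 46.2 and 51.3 FPKM in YL388 and 16.6 FPKM in YL390 (difference -1.50 ± 0.10, limma adjusted p = 0.00163). PNC1, a nicotinamidase that feeds NAD salvage, was at 559.8, 597 and 644 FPKM against 210.5 FPKM, and CYC7, the isoform of cytochrome c made under stress and low oxygen, at 152, 149 and 127 FPKM against 46.2 FPKM. Other 2-fold lower members were FMP16, YRO2, RTN2, MSC1, HSP42 and PAI3, with YL390 at 28.1 to 42.4% of the YL388 mean. PAI3, an inhibitor of the vacuolar proteinase A, lies next to SIP18 on chromosome XIII.

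Not all known targets were lower. SSA4, a stress-induced Hsp70 chaperone, was at 29.7, 24.7 and 26.8 FPKM in YL388 and 27.0 FPKM in YL390, and its relative SSA3 and the methyltransferase gene CRG1 also lay inside the YL388 range. GAC1, a subunit of protein phosphatase 1, and ALD2, an aldehyde dehydrogenase, lay just above it, with differences of 0.07 and 0.27 (limma adjusted p of 0.922 and 0.746). HSP26, a small heat shock protein, was at 23.9, 26.4 and 31.6 FPKM against 16.4 FPKM, below the YL388 range without a limma call (adjusted p = 0.153). HSP104, the disaggregase, was at 91.4, 91.1 and 94.5 FPKM against 66.0 FPKM, where limma called a smaller difference of -0.48 ± 0.08 (adjusted p = 0.0484). SOD2, the mitochondrial superoxide dismutase, was at 492, 542 and 554 FPKM against 385 FPKM (limma adjusted p = 0.0794). The 6 targets that lay below the range by less than 1.5-fold were HSP26, HSP78, HSP104, GRE3, GPX1 and SOD2.

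Reserve carbohydrate genes had the lowest median of the metabolic lists. This list is not separate from the target list, since TSL1, TPS1, GSY1, GSY2 and PGM2 are counted in both. CYC7, CTT1, HSP42 and SIP18 are likewise target list members that are counted again in lists below. Of 18 trehalose and glycogen genes kept out of 22, 6 were 2-fold lower (0.97% of all genes), 12 lay below the YL388 range (23.2% of all genes) and limma called 7 lower (1.62% of all genes), with a median difference of -0.66. Each subunit of the trehalose synthase complex lay below the YL388 range. TPS1, which makes trehalose 6-phosphate, was at 182, 180.4 and 176 FPKM in YL388 and 83.8 FPKM in YL390 (difference -1.09 ± 0.07, limma adjusted p = 0.00158), and TPS2, which removes the phosphate, at 66.7, 60.4 and 70.0 FPKM against 28.3 FPKM. TPS3, the other regulatory subunit beside TSL1, was at 30.1, 28.1 and 31.2 FPKM against 18.9 FPKM and just missed the limma threshold (adjusted p = 0.0562). NTH1, which breaks trehalose down, was also lower, at 58.3, 60.3 and 62.9 FPKM against 29.7 FPKM (limma adjusted p = 0.00492). For glycogen, both glycogen synthase genes were 2-fold lower, GSY2 at 67.7, 67.6 and 73.4 FPKM against 23.6 FPKM and GSY1 at 25.8, 28.7 and 29.2 FPKM against 11.6 FPKM. The branching enzyme GLC3 was at 23.1, 24.7 and 28.1 FPKM against 13.9 FPKM (limma adjusted p = 0.0545).

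The pair of phosphoglucomutases, which connect glucose 6-phosphate to glycogen, trehalose and cell wall precursors, went apart. PGM2 was at 44.4, 49.9 and 49.8 FPKM in YL388 and 20.2 FPKM in YL390 (difference -1.21 ± 0.11, limma adjusted p = 0.00487). PGM1 was at 65.4, 60.3 and 62.5 FPKM against 83.8 FPKM, above the YL388 range but not called by limma with 4 libraries (difference 0.41 ± 0.09, adjusted p = 0.101). PIG2, a regulator of glycogen synthase, was at 10.6, 10.6 and 10.9 FPKM against 14.2 FPKM (limma adjusted p = 0.321).

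In glycolysis the genes called lower were minor isozymes. Of 21 genes kept, 2 were 2-fold lower, against 0.97% of all genes, and 7 (33.3%) lay below the YL388 range, near the 23.2% of all genes. The median difference was -0.03. ENO1, an enolase, was at 90.2, 85.2 and 89.7 FPKM in YL388 and 39.0 FPKM in YL390 (difference -1.16 ± 0.08, limma adjusted p = 0.00202). PYK2, a pyruvate kinase used at low glycolytic flux, was at 26.9, 25.7 and 26.1 FPKM against 11.9 FPKM (limma adjusted p = 0.00698), and TDH1, a glyceraldehyde phosphate dehydrogenase, at 16, 16 and 16 FPKM against 7.34 FPKM (limma adjusted p = 0.0177). The abundant counterparts of ENO1 and TDH1 stayed close to YL388. ENO2 was at 2319, 2086 and 1836 FPKM in YL388 and 2416 FPKM in YL390, and TDH3 at 7336, 7279.6 and 6669.6 FPKM against 6936 FPKM. PDC1, the main pyruvate decarboxylase, was at 3965, 3794 and 3593 FPKM against 3876 FPKM. ENO1 and ENO2, and TDH1 and TDH3, are close copies, and how the authors' counting shared reads between copies is not given in the sources used here. HXK2, the main hexokinase at high glucose, was at 352, 344 and 344 FPKM against 441 FPKM, above the range but not called (limma adjusted p = 0.0764).

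Of 7 hexose transporters and sensors kept, 1 was 2-fold lower (14.3%, against 0.97% of all genes). HXT4, a transporter repressed by Mig1 at high glucose, was at 34.1, 29.7 and 28.9 FPKM in YL388 and 11.2 FPKM in YL390 (difference -1.38 ± 0.13, limma adjusted p = 0.00623). Unlike most of the lower genes it was not higher at low glucose in YL388, with a mean of 23.9 FPKM at middle and 20.3 FPKM at low concentrations. The other 6 transporters and sensors kept were not 2-fold beyond the range. HXT2, a high-affinity transporter, was at 794, 793 and 772 FPKM against 936 FPKM, and HXT3, a low-affinity one, at 91.1, 32.6 and 24.4 FPKM against 32.9 FPKM, inside a wide YL388 range. These transporter genes are similar in sequence, so the same limit on shared reads applies.

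The wider list of Mig1-repressed genes lay on both sides of the YL388 range. Of 17 kept, 8 (47.1%) lay below it and 6 (35.3%) above it, against 23.2 and 33.3% of all genes, and the median difference was -0.11. SUC2, the invertase, was at 54.8, 56.6 and 66.3 FPKM in YL388 and 68.2 FPKM in YL390 (limma adjusted p = 0.639), and JEN1, the lactate carrier, at 8.5, 11 and 15.8 FPKM against 11.6 FPKM, inside the range. EMI2, a relative of glucokinase, was at 61.7, 71.6 and 71.6 FPKM against 33.7 FPKM (difference -1.0 ± 0.11, limma adjusted p = 0.0141). HAP4, the activating subunit of the regulator of respiration, was at 93.5, 94.5 and 103 FPKM against 70.4 FPKM (limma adjusted p = 0.0872).

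Most respiratory genes lay a little below the YL388 range. Of 40 nuclear genes of the respiratory chain and ATP synthase kept, 32 lay below the YL388 range, against 23.2% of all genes, with a median difference of -0.27. Only CYC7 was 2-fold lower, and it was the 1 gene of this list that limma called with 4 libraries, while the fit on 10 libraries called 14 lower, against 3.21% of all genes. CYB2, a lactate dehydrogenase that passes electrons to cytochrome c, was at 26.6, 24.6 and 28.4 FPKM in YL388 and 15.6 FPKM in YL390 (limma adjusted p = 0.0525). QCR7, a subunit of complex III, was at 1657, 1696 and 1950.0 FPKM against 1399 FPKM, typical of the list.

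Of 15 genes of the tricarboxylic acid cycle kept, 9 (60%) lay below the range, against 23.2% of all genes, and 0 were 2-fold lower. MDH1, the mitochondrial malate dehydrogenase, was at 671, 660.4 and 672 FPKM in YL388 and 378 FPKM in YL390 (difference -0.82 ± 0.06, limma adjusted p = 0.00288). LSC2, a subunit of succinyl-CoA ligase, went the other way, at 184, 210.4 and 226 FPKM against 294 FPKM. Limma called it only in the fit on 10 libraries, which called MDH1 and other genes of the list lower. The median difference of the list was -0.17, and 20% of its genes lay above the range, against 33.3% of all genes.

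Defence against peroxide and protein damage was lower only in part. Of 24 peroxide and thiol defence genes kept, 14 (58.3%) lay below the YL388 range and 7 (29.2%) above it, against 23.2 and 33.3% of all genes. With 10 libraries limma called 5 lower, against 3.21% of all genes, and with 4 libraries it called 2, against 1.62%. Besides CTT1 this was SOD1, the cytosolic superoxide dismutase that CCS1 loads with copper, at 6662, 7478 and 7578 FPKM in YL388 and 4573 FPKM in YL390 (difference -0.66 ± 0.09, limma adjusted p = 0.0286). SRX1, the sulfiredoxin, was at 51.6, 68.5 and 65.0 FPKM against 32.4 FPKM (limma adjusted p = 0.0722).

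Of 24 heat shock chaperones kept, 8 (33.3%) lay below the YL388 range and 12 (50.0%) above it, against 23.2 and 33.3% of all genes, with a median difference of 0.08. HSP42, a small heat shock protein, was at 65.0, 66.3 and 72.3 FPKM in YL388 and 28.8 FPKM in YL390 (limma adjusted p = 0.00326). STI1, a cochaperone of Hsp90 known as a target of the heat shock factor Hsf1, was at 268, 269 and 279 FPKM against 355 FPKM (limma adjusted p = 0.0646), and HSP82, an Hsp90, at 124.7, 133 and 147 FPKM against 161 FPKM. Of 17 salt stress and glycerol genes kept, SIP18 and FMP48 were 2-fold lower (11.8%, against 0.97% of all genes). In that list 9 genes (52.9%) lay below the YL388 range and 2 (11.8%) above it, against 23.2 and 33.3% of all genes.

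Of the 46 genes that were 2-fold lower, 22 were on the Msn2 and Msn4 target list, 7 on another list only and 17 on no list. Those outside the target list included BNA1, an enzyme of NAD synthesis, at 190.2, 204 and 208 FPKM in YL388 and 82.3 FPKM in YL390, and TPO4, a polyamine exporter, at 43.6, 41.2 and 42.0 FPKM against 16.5 FPKM. SPG4, a gene known from stationary phase, was at 40.2, 38.2 and 39.8 FPKM against 12.9 FPKM. COS12, a member of the subtelomeric COS family whose copies are alike, was at 26.9, 27.6 and 32.2 FPKM against 9.02 FPKM. PIC2, a mitochondrial carrier, and YER053C-A beside it on chromosome V were 2.27-fold and 2.57-fold lower. In the step from 1.5-fold to 2-fold lower there were 38 more genes, 10 of them on the target list, such as the cell wall gene SPI1 at 104, 126 and 101.5 FPKM against 50.9 FPKM. PUT4, the proline permease, lies next to PYK2 on chromosome XV and was at 117, 106 and 131 FPKM against 57.3 FPKM (limma adjusted p = 0.0183).

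The higher genes were fewer, and among genes above 0 in all 4 libraries none had a gap of 2-fold. The 1 gene 2-fold above the range was YJL136W-A, 84 bases long, which was listed at 0 in the 3 YL388 libraries and read at 115 FPKM in YL390. In YL388 it was read at 354 FPKM at 0.075% and 129 FPKM at 0.05% glucose, so 0 and high values alternate within that strain too, and the YL390 value lay within the range of all 9 YL388 libraries. Of the 18 genes 1.5-fold higher (0.38% of all genes), 7 were under 300 bases long, as were 241 of all 4740 genes. Of the 46 genes 2-fold lower, 32 were at least 300 bases long and the others were shorter. Both sets thus held a larger share of short genes than all genes did. The 4-library limma test called 9 of the 18. ARO10, the phenylpyruvate decarboxylase that breaks down aromatic amino acids in the Ehrlich pathway, was at 59.5, 62.3 and 74.5 FPKM in YL388 and 137 FPKM in YL390 (difference 1.06 ± 0.14, limma adjusted p = 0.0223). ARG3, ornithine carbamoyltransferase of arginine synthesis, was at 19.6, 18.8 and 23.8 FPKM against 44.2 FPKM (difference 1.06 ± 0.15, limma adjusted p = 0.0335). No other gene kept on the amino acid list was 1.5-fold above the range.

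MMP1 and MHT1, neighbours on chromosome XII with 342 bases between them, take up S-methylmethionine and use it to make methionine. MMP1 was at 36.0, 37.6 and 42.4 FPKM in YL388 and 72.2 FPKM in YL390 (difference 0.89 ± 0.12, limma adjusted p = 0.0229). MHT1 was at 22, 29 and 34 FPKM against 52.2 FPKM (limma adjusted p = 0.171). In the sulfate and methionine list 16 of 28 genes kept lay above the range, against 33.3% of all genes, with a median difference of 0.08. MET14, adenylylsulfate kinase, was the other gene of that list called higher, at 88.4, 95.8 and 93.3 FPKM against 137 FPKM (limma adjusted p = 0.0367).

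ALD6, the cytosolic dehydrogenase that turns acetaldehyde into acetate, was at 728, 725 and 704 FPKM in YL388 and 1181 FPKM in YL390 (difference 0.71 ± 0.06, limma adjusted p = 0.00492). Its list, gluconeogenesis and the glyoxylate cycle with acetate metabolism, had 11 of 20 genes (55.0%) above the range and 2 below it, against 33.3 and 23.2% of all genes, with a median difference of 0.14. ATO3, a putative ammonium exporter, was the other gene called higher, at 378, 378 and 378 FPKM against 500.1 FPKM (limma adjusted p = 0.0456). CIT2, the peroxisomal citrate synthase, was at 68.4, 55.2 and 54.1 FPKM against 84.7 FPKM (limma adjusted p = 0.243), and FBP1, fructose bisphosphatase, at 13.6, 13.1 and 11.9 FPKM against 14.1 FPKM.

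HOT13, which serves protein import into the mitochondrial intermembrane space, was at 103 FPKM in each YL388 library and 172 FPKM in YL390 (difference 0.73 ± 0.07, limma adjusted p = 0.00698). It lies next to MDH1, which was lower, with 381 bases between them. YLR460C had the largest gap of the higher genes read in all 4 libraries, at 7.0, 12 and 9.8 FPKM against 22.7 FPKM, without a limma call (adjusted p = 0.129). GSC2, a glucan synthase subunit, was at 15.8, 16.1 and 17.3 FPKM against 26.5 FPKM (limma adjusted p = 0.0612). YML131W was 1.68-fold, YGR050C 1.93-fold and YGL230C 1.60-fold higher, and limma called YGR050C of these (adjusted p = 0.0434). The short genes YOL038C-A, YGR146C-A and YNR075C-A were read at spread levels in YL388, YNR075C-A at 369, 187 and 62.8 FPKM against 602 FPKM.

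The genes of growth stayed near equality. Of 121 cytosolic ribosomal protein genes kept, 0 were 2-fold beyond the range and the median difference was 0.02. RPS29A and RPS29B, close copies between which reads may be split, were 1.74-fold and 1.57-fold higher (limma adjusted p of 0.0349 and 0.0183). RPL29, of the large subunit, was at 32955, 32708 and 37298 FPKM in YL388 and 52393 FPKM in YL390 (limma adjusted p = 0.0423), and RPL1B had the lowest difference, -0.36. Of 78 ribosome biogenesis genes kept none was 1.5-fold beyond the range, with differences from -0.52 for the helicase DBP2 to 0.22 for GAR1. Proteasome genes differed by between -0.15 for PUP3 and 0.21 for RPT2, with 23 of 32 (71.9%) above the YL388 range, against 33.3% of all genes, and none called by limma with 4 or 10 libraries. Histone genes differed by between -0.04 for HHF2 and 0.43 for HHT1, which limma called (adjusted p = 0.0418). Cyclin and cell cycle genes ranged from -0.48 for CLN3 to 0.32 for RNR4, with no limma call among 24 kept with 4 libraries and a call of RNR4 with 10 (limma adjusted p = 0.0329).

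**Figure D3:**
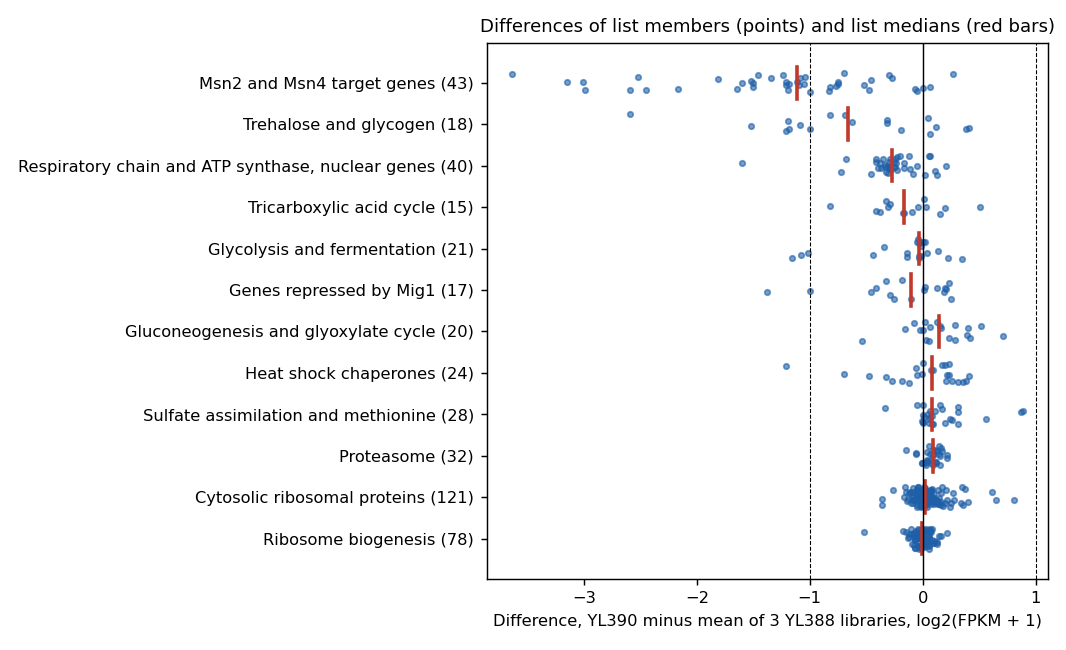
Difference between the YL390 library and the mean of the 3 YL388 libraries in log2(FPKM + 1) for each kept member (blue points) of 12 gene lists, with the number kept in brackets; red bars are list medians and broken lines are 2-fold. The target list has its median at -1.11 and the reserve carbohydrate list at -0.66, while ribosomal proteins and ribosome biogenesis are centred near 0.

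The nutrient and biosynthesis lists held few departures. Iron uptake ranged from -0.23 for FIT2 to 0.43 for FRE1, zinc and copper from -0.28 for ZRT1 to 0.31 for IZH2, and phosphate from -0.71 for PHM6 to 0.26 for VTC2, with no limma call in these lists with 4 libraries. The fit on 10 libraries called IZH2 (limma adjusted p = 0.0287) and 1 phosphate gene. Sterol and fatty acid synthesis ranged from -0.60 for INO1 to 0.36 for ERG6, purine synthesis from -0.55 for ADE17 to 0.33 for ADE8 and pyrimidine synthesis from -0.14 for PPR1 to 0.16 for FUR1, again with no limma call with 4 libraries. With 10 libraries limma called ERG6 (adjusted p = 0.0196) and ADE8 (adjusted p = 0.0085), and 3 sterol and fatty acid genes lower and 2 higher in all. Peroxisomal fatty acid oxidation ranged from -0.12 for FAA1 to 0.18 for FAA4. Members of the mitochondrial ribosomal protein list ranged from -0.36 for MRP8 to 0.19 for MRP35. Of 51 kept on that list, 23 (45.1%) lay below the YL388 range, against 23.2% of all genes. Meiotic genes ranged from -0.01 for SPO13 to 0.26 for IME4. Mating and pheromone genes ranged from -0.21 for PRM8 to 0.48 for PRM5, with 18 of 31 above the YL388 range, against 33.3% of all genes, and no limma call with 4 libraries. PRM5 was called with 10 (limma adjusted p = 0.00309).

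The YL388 libraries at middle and low glucose, which do not enter the difference between YL390 and the 3 high-glucose libraries, show how the lower genes respond to glucose. From the middle to the low libraries 107 of 4740 genes (2.26%) were at least 2-fold higher in the mean and 13 (0.274%) at least 2-fold lower, called rising and falling below with no test. Of the 46 genes lower in YL390, 23 were among the 107, which is 50.0% of the lower genes and 21.5% of the rising ones. In 42 of the 46 the mean at low glucose was above that at middle glucose, and the median change was 1.01, against 0.02 over all genes. SIP18 went from a mean of 358 FPKM at middle to 5944 FPKM at low glucose, HSP12 from 16487 to 37041 FPKM and YGP1 from 463 to 1105 FPKM. MSN2 itself was at 43.4 and 44.5 FPKM. The 4 lower genes that were not higher at low glucose were HXT4, COS12, YAR035C-A and YPL152W-A.

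**Figure D4:**
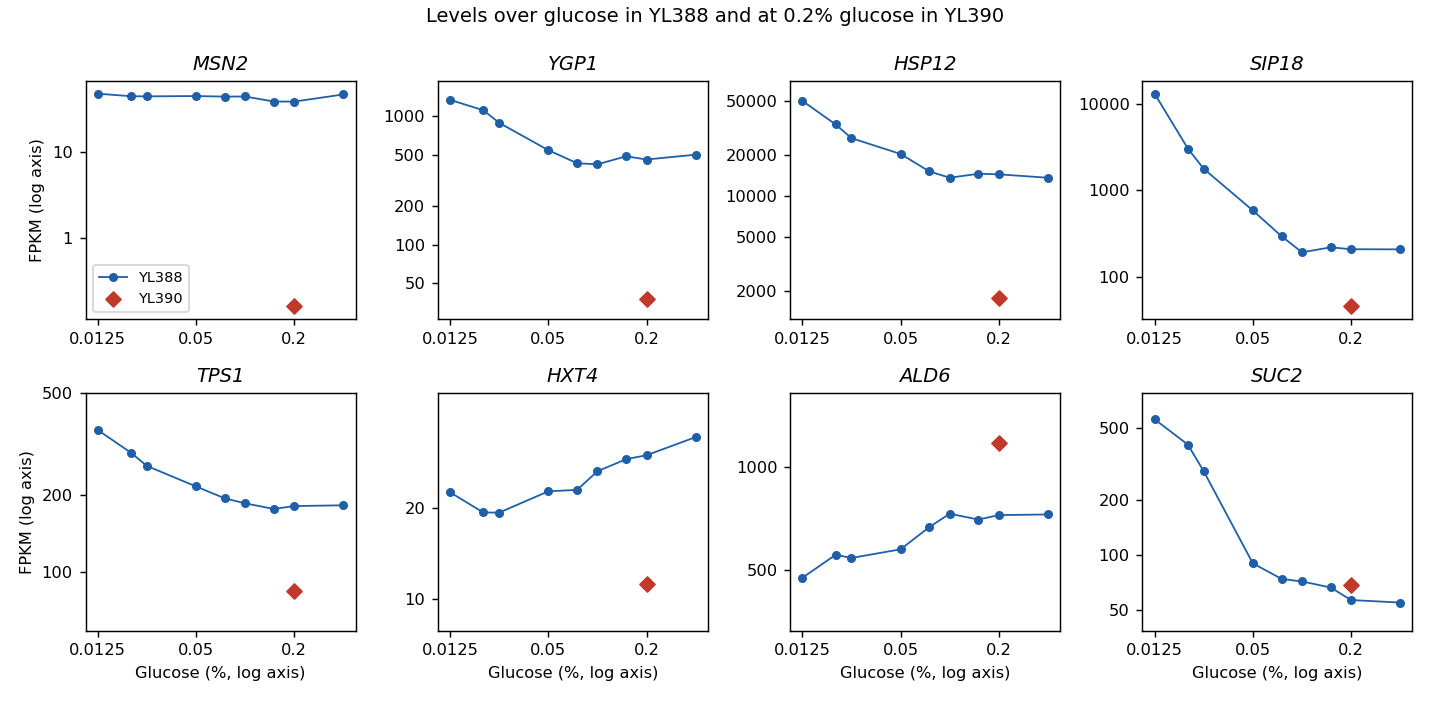
FPKM (log axis) of 8 genes over glucose concentration (percent, log axis) in the 9 YL388 libraries (blue points and line) and in the YL390 library at 0.2% glucose (red diamond). For YGP1, HSP12, SIP18 and TPS1 the YL390 level lies below every YL388 library; for ALD6 it lies above all of them, and for SUC2 it lies within their range.

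The converse did not hold for all glucose-responsive genes. Of the 107 genes that rose at low glucose, 68 lay below the YL388 range in YL390, a larger share than the 23.2% of all genes. The other 39 were not below it, and 14 of these lay above it, a smaller share than the 33.3% of all genes. JEN1 went from a mean of 16.4 FPKM at middle to 128 FPKM at low glucose in YL388, IDP2, the cytosolic isocitrate dehydrogenase, from 22.7 to 206 FPKM, and SUC2 from 78.5 to 415 FPKM. Their YL390 differences were 0.02, 0.16 and 0.20. ADH2, the alcohol dehydrogenase that consumes ethanol, went from 35.2 to 175 FPKM and was at 32.6, 33.8 and 33.3 FPKM in the high-glucose YL388 libraries against 44.0 FPKM in YL390 (difference 0.40, limma adjusted p = 0.124). Target list members that rise strongly at low glucose also varied: GRE1, a hydrophilin gene, had a change of 3.01 with glucose and a YL390 difference of -0.77, and DDR2 a change of 1.75 and a YL390 difference of -2.99. Of the 43 target genes, 22 rose 2-fold at low glucose and 13 both rose and were 2-fold lower in YL390. The list was written with earlier results on this glucose series known, so the count of rising members is not independent of it.

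**Figure D5:**
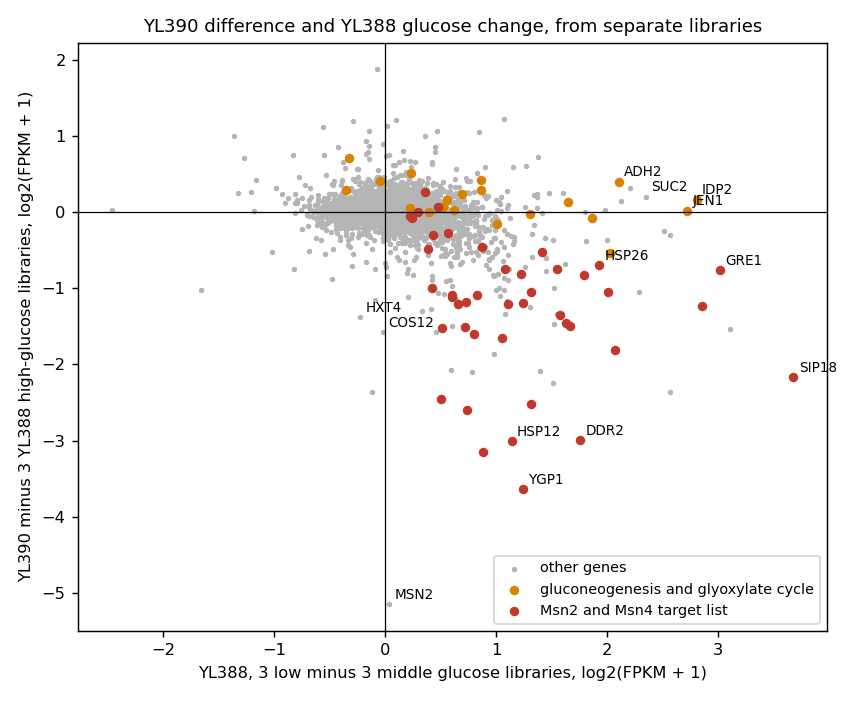
Difference of the YL390 library from the 3 YL388 high-glucose libraries (vertical axis) against the change from the 3 middle to the 3 low glucose YL388 libraries (horizontal axis), both in log2(FPKM + 1), for kept genes above 0 in the 4 compared libraries; the axes share no library. Red target list members lie mostly to the lower right, while orange gluconeogenesis genes such as JEN1 and IDP2 lie to the right near 0.

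Promoter windows were searched for AGGGG on either strand in the 4695 kept genes that have one. At least 1 copy was present in 23.7% of all windows and in 36 of the 46 lower genes (78.3%), and at least 2 copies in 4.15% of all windows and in 43.5% of the lower genes. Of the 24 lower genes outside the target list 16 held a copy (66.7%), among them STF2, YPC1 and TPO4 with 2 copies each. Of the 22 lower genes on the target list 20 held a copy (90.9%), and of the 21 targets not 2-fold lower 16 did (76.2%). Among 17 of the 18 higher genes 3 held a copy (17.6%). The Mig1 core, searched on both strands as GGGG directly preceded by GC, CC, GT or CT, was present in 14.6% of all windows, in 15 of the 46 lower genes (32.6%) and in 3 of 17 higher genes. On the same strand a Mig1 core cannot be an AGGGG. HXT4 held 2 Mig1 cores and no AGGGG, and TSL1 held 3 beside its 5 copies of AGGGG. A match describes these letters in this window and is not a measured binding site.

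Large differences also occurred among the genes left out because they overlap another gene. After the level filter 15 of them were 2-fold lower and 4 were 2-fold higher, given here as counts without a share. Of the 15, 10 were listed at 0 in YL390. All of these 10 but YGR151C and YLR236C were also listed at 0 in some YL388 library at middle or low glucose. The 4 higher genes were listed at 0 in the 3 YL388 libraries. Of the 15 lower genes, 5 were above 0 in all 4 libraries, among them those named next. GPH1, glycogen phosphorylase, was at 23.2, 28.6 and 32.8 FPKM in YL388 and 3.18 FPKM in YL390. HXK1, the hexokinase made at low glucose, was at 339, 435 and 510.2 FPKM against 69.3 FPKM, and GLK1, glucokinase, at 289, 311 and 334 FPKM against 92.5 FPKM. RGI1, known from respiratory growth, was at 57.4, 74.9 and 68.4 FPKM against 16.9 FPKM. Reads of the overlapping partner may be part of these levels, so they are given as values only.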

How the data were processed

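How RNA was selected and whether strand was kept is not given in the sources used here. Libraries were made from total RNA of methanol-fixed cells, per the labels' protocols. TopHat, Cufflinks, DESeq2 and the sacCer3 build are named, without versions, in the submitters' processing notes. The deposited tables hold FPKM per gene and its confidence bounds, per the file headers, and no read counts. For 57.0 to 66.4% of the kept genes the deposited FPKM estimate lay outside its own bounds, so the use of the bounds was limited. They served to judge depth (as counts with 2 Poisson SDs on each side, from genes of at least 1500 bases) and as an alternative. They are also quoted for the YL390 value of MSN2. FPKM are shares of a library, so a lower level per cell and a larger share of other RNA cannot be told apart. Gene symbols and genome sequence came from RefSeq R64, where 6008 of 6692 IDs matched, 6000 of them with identical coordinates.

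Values were taken as log2(FPKM + 1) with a minimum mean of 10 FPKM over the 4 libraries, and genes overlapping another gene in the files were left out. The genes nearest that minimum were MSH5 at 10.01 FPKM inside and YMR230W-A at 9.99 FPKM outside. The 15 kept genes listed at 0 in a library stayed in the counts. The limma test (limma 3.58.1 in R 4.3.3, intensity trend, Benjamini-Hochberg over 4740 genes, adjusted p under 0.05) used a strain term and the 4 libraries. At an unadjusted p under 0.05 it found 564 genes, 268 of them higher. An alternative fitted 10 libraries with log2 glucose and its square. The method was tested on simulated data.

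The libraries and the 37 gene lists were chosen with earlier results of these data known, and lists are described by counts and medians with no test. Named were the 15 genes furthest outside the range in each direction, the regulators, 2-fold members of each list or its extremes, and marker genes; other genes, and the 5 promoters shown, were chosen after their values were seen. The planned windows of MSN2 and of the higher genes YLR460C, ARO10 and ARG3 are not shown and held no AGGGG. The labels do not say whether the cultures were grown on different days, and each culture was sequenced as 1 library.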

Additional observations from a re-analysis of the deposited data

Results flagged for a closer look

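Among the genes left out of the comparison because they overlap another gene, 4 were listed at 0 in the 3 YL388 libraries and carried a signal in the YL390 library. YIL020C-A was at 191.6 FPKM, YHR032C-A at 212 FPKM, YKR012C at 195 FPKM and YLR076C at 1861 FPKM. All 4 were also read in other YL388 libraries, YIL020C-A and YLR076C at 196 and 1795 FPKM at 0.075% glucose, YHR032C-A at 228 FPKM at 0.025% and YKR012C at 284.5 FPKM at 0.0125%, so for these genes a value of 0 and a high value occur within YL388 too. In the other direction 10 overlapping genes were listed at 0 in YL390 and above 0 in all 3 YL388 libraries. Why values of overlapping genes alternate in this way was not tested.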

How the results depend on the processing

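All 46 lower genes remained 2-fold lower with median-of-ratios or quantile scaling. They also remained with a pseudocount of 0.1 and without any of the 3 YL388 libraries (counts of 50 to 53), which says little. A smaller pseudocount can only widen a gap. Leaving out a YL388 library can only narrow their range, so a gene could be lost only through the level filter. Over the other settings at the 2-fold limit the count ran from 32 (genes of at least 300 bases, an alternative chosen after seeing the data, with 17 on the target list) to 61 (overlapping genes kept, 26 on the target list), and it was 84 at 1.5-fold. The count of 2-fold higher genes, 1, was 0 with a minimum mean of 30 FPKM, without genes listed at 0, with the centre of the bounds or with genes of at least 300 bases. It was 5 with a minimum mean of 1 FPKM or with overlapping genes kept, 8 with no filter, 18 at 1.5-fold, 19 against the 0.2% library alone, 20 against the mean of the 3 and 2 to 7 with 1 library left out. The limma counts depended more on the setting. The 16 higher calls became 10 with a minimum mean of 1 FPKM, no filter or median-of-ratios scaling, 37 with genes of at least 300 bases, 45 with 10 libraries, 50 with the centre of the bounds and 3 (without 0.4%) to 20 (without 0.2%) with 1 library left out. The 77 lower calls became 31 with no filter, 120 with genes of at least 300 bases, 146 with the centre of the bounds, 152 with 10 libraries and 60 to 102 with 1 library left out. The cause of these shifts was not tested. Of 1522 differences of named genes recomputed under the alternatives none reversed, 1434 moved by less than the YL388 spread and 88 by more; of 333 list medians none reversed. No paired analysis was possible because the steady-state libraries carry no replicate numbers. The main limit is the single YL390 library: culture, library and strain cannot be told apart.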
